A study of Homo sapiens with 12 samples.

Results

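This report covers arrays labelled as a sort by GD2: 6 of the 12 arrays of a study of HMLER cells, namely the 3 titled GD2+ and the 3 titled GD2-, with all 54613 probe sets other than the 62 control probe sets. HMLER cells are a human mammary epithelial line transformed with Ras, and as background they descend from cells immortalised with telomerase and viral antigens, so both groups carry the same oncogenes. By their labels the cells received no treatment and were separated by flow cytometry into populations with and without GD2 on their surface, and total RNA of each population was hybridized to single-colour Affymetrix arrays. The other 6 arrays are labelled as a sort of the same line by CD44 and CD24. The labels do not say whether the 3 arrays of a group came from separate cultures or sorts, and a p-value here reflects only how much these arrays spread, which may be technical.

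GD2 is a ganglioside, a glycolipid with sialic acid sugars that sits in the outer leaflet of the plasma membrane. It is built stepwise from lactosylceramide: GM3 synthase adds a sialic acid, GD3 synthase (encoded by ST8SIA1) adds another, and the enzyme encoded by B4GALNT1 adds an N-acetylgalactosamine. In mammary lines of this kind, cells can pass through an epithelial-mesenchymal transition (EMT), in which factors such as ZEB1 and TWIST1 repress cadherin and splicing-regulator genes of epithelial cells while collagens and other matrix genes come up.

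Genes are named from known annotation of this array type, with 1 probe set per gene, the one with the highest mean level over the 6 arrays unless another is stated. Levels are the deposited log2 values, and differences are means of the arrays titled GD2+ minus means of the arrays titled GD2-, with the standard error (SE) of limma's fit. A gene is called higher or lower where limma's p, adjusted over all 54613 probe sets by Benjamini-Hochberg, is below 0.05. In all, 467 probe sets (0.855%) were higher and 254 (0.465%) lower in the arrays titled GD2+, 721 together (1.32%). At an unadjusted p below 0.05, a count given for some lists below, 6.19% of all probe sets were higher and 7.49% lower. The median difference over all probe sets was 0.01 log2 units, and the middle 90% lay between -0.62 and 0.56. Of 617 genes in 22 lists of pathways and cell types, 539 had a named probe set, of which 58 were higher and 21 lower. Of all 110 named genes called, 36 of 69 higher and 3 of 41 lower kept their call in each of the 6 fits that left out an array.

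The titles were first set against the markers of the sort. ST8SIA1, which encodes GD3 synthase, had levels of 3.63, 3.81 and 4.27 in the arrays titled GD2+, against 7.69, 6.99 and 8.23 in the arrays titled GD2-. All 3 arrays titled GD2- lay above all 3 titled GD2+, so the gene for the enzyme that makes the precursor of GD2 was high where the title says GD2 was absent. The difference was -3.73 ± 0.33 (SE, 13.3-fold lower, limma adjusted p = 0.00568). The levels in the arrays titled GD2+ lay around the lower quartile of those arrays (4.12 to 4.15), and no call of detection above background was used, so the fold is a lower bound if the probe set was at background there. The gene missed the threshold with GD2+ replicate 2 left out (adjusted p = 0.0528) and passed it with each other array left out. B4GALNT1 had 6.76, 7.10 and 7.16 in the arrays titled GD2+ and 6.90, 6.91 and 6.67 in those titled GD2-. These groups overlapped, with a difference of 0.18 ± 0.14 (SE, adjusted p = 0.674, limma).

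EPCAM, an adhesion molecule of epithelial cells, had 12.001, 10.82 and 10.67 in the arrays titled GD2+ and 6.04, 5.66 and 4.56 in those titled GD2-. ESRP1, a splicing regulator of epithelial cells, had 11.01, 10.11 and 10.15 in the arrays titled GD2+ and 5.08, 4.77 and 4.01 in those titled GD2-. ZEB1, a repressor of epithelial genes, had on the dimmer of its probe sets 6.22, 8.30 and 8.35 in the arrays titled GD2+ and 9.93, 9.73 and 10.40 in those titled GD2-. For these 3 genes too the groups did not overlap, EPCAM and ESRP1 being high and ZEB1 low in every array titled GD2+. EPCAM was 53.6-fold higher (difference 5.74 ± 0.49 SE, adjusted p = 0.00487, limma) and ESRP1 56.0-fold higher (5.81 ± 0.35 SE, adjusted p = 0.00139). The difference of ZEB1 was -2.40 ± 0.58 (SE) and missed the threshold (adjusted p = 0.134, limma), as did that of its brighter probe set (-2.83 ± 0.88 SE, adjusted p = 0.225).

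The direction of the ST8SIA1 difference thus goes against the titles. The short codes in the description field of these arrays also differ from the titles in their middle letter, m on the arrays titled GD2+ and p on those titled GD2-, and nothing in the labels says what the letters mean. The arrays are therefore called by their titles throughout, and every direction given here would turn round if the titles were exchanged. Nor could the files settle whether the labels of the GD2 and CD44/CD24 arrays were exchanged between the sorts, a doubt raised by the deposited tables described at the end. In that case the differences given here would be those of the other sort.

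**Figure D1:**
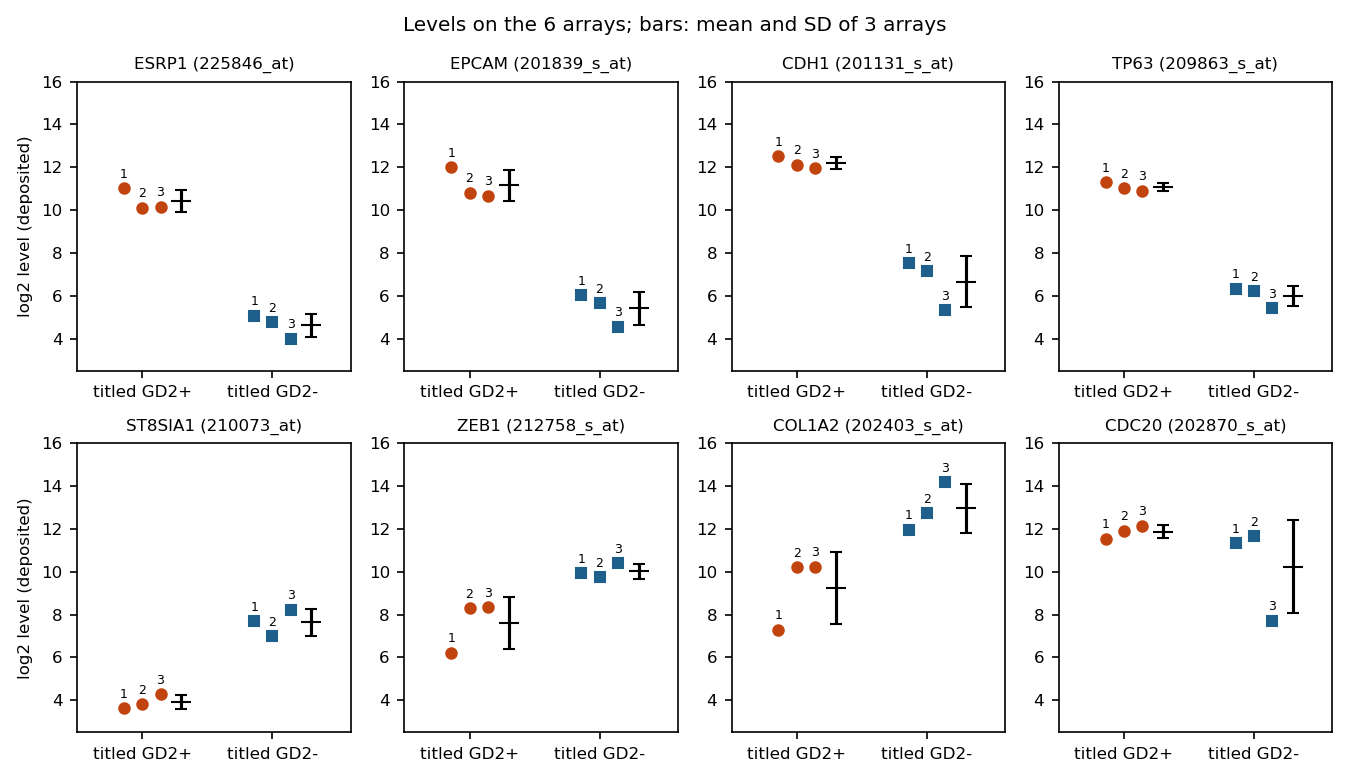
Deposited log2 levels (vertical axis) of 8 probe sets on the arrays titled GD2+ (circles, left) and GD2- (squares, right), with the replicate number above each point and bars for the mean and SD of 3 arrays. ST8SIA1 lies between 3.63 and 4.27 in the arrays titled GD2+ and between 6.99 and 8.23 in those titled GD2-, opposite to EPCAM, ESRP1, CDH1 and TP63, and CDC20 is low only in GD2- replicate 3.

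Among the 6 arrays, a pair stood apart from the others of its group. GD2+ replicate 1 correlated with the other arrays titled GD2+ at r = 0.984 and 0.985 across probe sets, while replicates 2 and 3 of that group correlated at 0.997. GD2- replicate 3 correlated with the other arrays titled GD2- at 0.974 and 0.977, while replicates 1 and 2 correlated at 0.987. The mean level of the 56 mesenchymal and matrix genes was 8.45, 9.59 and 9.59 in the arrays titled GD2+ and 10.33, 10.66 and 11.67 in those titled GD2-, so the array titled GD2+ that stood apart was the lowest of the 6 and the array titled GD2- that stood apart was the highest. The mean level of 36 cell cycle genes was 10.55, 10.84 and 10.86 in the arrays titled GD2+ and 10.64, 10.92 and 7.94 in those titled GD2-, with only GD2- replicate 3 low. Leaving out either or both of these arrays is given beside the counts that it moves. The share of these differences in the results was not tested further.

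Of 45 measured epithelial junction and identity genes, 24 were higher in the arrays titled GD2+, none was lower (none at an unadjusted p below 0.05 either) and 21 did not pass the test, and the list's median difference was 2.16. In 38 of the 45 all arrays titled GD2+ lay above all titled GD2-, against 9.72% of all probe sets. The arrays that stood apart moved with this list: GD2+ replicate 1 was the highest of the 6 arrays for 39 of the 45 genes and GD2- replicate 3 the lowest for 27. The list's mean level was 9.68, 8.85 and 8.85 in the arrays titled GD2+ and 6.96, 6.65 and 6.43 in those titled GD2-, and its median difference was 1.86 with both of these arrays left out. The count of higher genes was 31 with both arrays that stood apart left out, and it was 14 without GD2+ replicate 2, 12 without GD2+ replicate 3 and 16 to 25 without any other single array.

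Beside EPCAM and ESRP1, the differences were widest for CDH1, which encodes E-cadherin, the adhesion protein of adherens junctions. CDH1 had 12.51, 12.12 and 11.96 in the arrays titled GD2+ and 7.54, 7.15 and 5.32 in those titled GD2-. Every array titled GD2+ was higher, and GD2- replicate 3 was the lowest. CDH1 was 46.1-fold higher (5.53 ± 0.56 SE, adjusted p = 0.00989, limma), a call lost without GD2+ replicate 2 or 3 (adjusted p up to 0.0773).

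CD24, a small glycoprotein of the cell surface, had 12.44, 12.18 and 12.18 in the arrays titled GD2+ and 8.54, 7.88 and 7.66 in those titled GD2-. All 6 of its probe sets were higher, by 3.80 to 4.90 log2 units. The transcription factor genes GRHL2 and OVOL2, which keep epithelial genes on, differed by 2.30 ± 0.13 and 1.90 ± 0.11 (SE, adjusted p = 0.00136 and 0.00134, limma), and both calls held with each array left out in turn. Desmosome genes were split: PKP3 (2.45), PKP2 (1.70), JUP (2.02) and DSC2 (1.78) were higher, whereas DSG3 (2.75, adjusted p = 0.15), DSP (1.44, 0.15) and PKP1 (1.00, 0.31) did not pass. Of the tight junction genes, LSR (3.59) and OCLN (1.52) were higher and CLDN1 (1.21), CLDN4 (0.90) and CLDN7 (0.70) did not pass, while the call of OCLN was lost with any array left out. The calls of DSC2, JUP and LSR held in 1, 2 and 3 of the 6 fits that left out an array.

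S100A14, a calcium-binding protein gene of epithelia, had 11.95, 11.34 and 11.37 in the arrays titled GD2+ and 7.05, 6.89 and 6.28 in those titled GD2-. TMEM30B, a subunit of lipid flippases, had 10.10, 9.44 and 9.63 in the arrays titled GD2+ and 5.16, 5.24 and 4.66 in those titled GD2-. For both genes the groups did not overlap, and their differences were 4.81 ± 0.25 and 4.71 ± 0.23 (SE, adjusted p = 0.00107 and 0.000755, limma). RAB25, a small GTPase of epithelial vesicle recycling, differed by 4.30 ± 0.54 (SE, adjusted p = 0.0218, limma) and AP1M2, an adaptor for sorting to the basolateral membrane, by 2.35 ± 0.33 (SE, adjusted p = 0.03, limma). The calls of S100A14 and TMEM30B held with each array left out in turn, whereas that of RAB25 was lost in 3 of 6 such fits and that of AP1M2 in 5 of 6.

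As background, ZEB1 and SNAI proteins bind E-boxes of the form CAGGTG, which reads CACCTG on the other strand. These motifs were sought on both strands in RefSeq promoter windows of 300 bases (250 before the start of the gene and 50 after, GRCh38.p14), and 5625 of 27305 windows in the table (20.6%) held at least 1. Of the measured epithelial genes 27 had a window and 14 of these held the motif (51.9%), against 1 of 37 windows of measured mesenchymal and matrix genes (2.70%) and 6 of 13 of basal genes (46.2%). A match is a description of these letters and not a binding site. Of the 14 epithelial genes called higher that had a window, 9 held the motif. The windows of 4 of these 9 are shown, those of the genes whose levels or differences were described just above. S100A14, TMEM30B, RAB25 and AP1M2 hold 1, 4, 2 and 3 matches, with E-boxes in capitals and each sequence on the strand of its gene.
S100A14, chr1:153616276-153616575, minus strand: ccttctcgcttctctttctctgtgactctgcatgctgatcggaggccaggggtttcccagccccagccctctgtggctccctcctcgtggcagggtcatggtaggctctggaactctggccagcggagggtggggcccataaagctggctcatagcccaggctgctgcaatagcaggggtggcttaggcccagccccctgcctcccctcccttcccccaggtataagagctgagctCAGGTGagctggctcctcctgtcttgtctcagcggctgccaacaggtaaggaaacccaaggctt
TMEM30B, chr14:61281289-61281588, minus strand: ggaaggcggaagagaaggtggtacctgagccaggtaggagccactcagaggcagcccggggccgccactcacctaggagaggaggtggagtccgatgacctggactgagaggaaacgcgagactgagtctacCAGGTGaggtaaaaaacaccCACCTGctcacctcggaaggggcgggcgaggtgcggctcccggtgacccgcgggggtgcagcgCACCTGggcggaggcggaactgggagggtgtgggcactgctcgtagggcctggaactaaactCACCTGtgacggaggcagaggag
RAB25, chr1:156060910-156061209, plus strand: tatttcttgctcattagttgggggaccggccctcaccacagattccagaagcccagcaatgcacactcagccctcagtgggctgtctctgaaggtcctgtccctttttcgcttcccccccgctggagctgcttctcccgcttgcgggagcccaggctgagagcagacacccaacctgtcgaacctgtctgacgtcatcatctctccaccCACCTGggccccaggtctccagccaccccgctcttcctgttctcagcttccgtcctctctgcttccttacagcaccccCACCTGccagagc
AP1M2, chr19:10587263-10587562, minus strand: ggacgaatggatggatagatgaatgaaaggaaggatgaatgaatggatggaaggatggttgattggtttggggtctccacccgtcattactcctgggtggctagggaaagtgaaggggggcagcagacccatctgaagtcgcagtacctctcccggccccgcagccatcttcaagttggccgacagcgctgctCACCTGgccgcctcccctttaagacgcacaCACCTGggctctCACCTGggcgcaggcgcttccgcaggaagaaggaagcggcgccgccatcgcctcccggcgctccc

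Basal and myoepithelial genes mark the outer cell layer of the mammary duct. Of 24 measured, 14 were higher, 1 was lower and 9 did not pass, with a median difference of 2.26. In 21 all arrays titled GD2+ lay above all titled GD2-, against 9.72% of all probe sets. With each array left out in turn the count of higher genes was 10 to 18, and it was 18 with both arrays that stood apart left out. GD2- replicate 3 was the lowest of the 6 arrays for 6 of the 24, and GD2+ replicate 1 was the highest for 13.

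TP63, the transcription factor that maintains basal epithelium, had 11.29, 11.02 and 10.91 in the arrays titled GD2+ and 6.33, 6.21 and 5.44 in those titled GD2-. COL17A1, a transmembrane collagen of hemidesmosomes, had 9.82, 9.95 and 10.02 in the arrays titled GD2+ and 5.66, 5.91 and 5.84 in those titled GD2-. Neither gene overlapped between the groups, and the arrays of a group lay close together for COL17A1. TP63 was 34.0-fold higher (5.09 ± 0.25 SE, adjusted p = 0.000788, limma), with all 3 of its probe sets called, and COL17A1 had the smallest adjusted p of the list (4.13 ± 0.11 SE, adjusted p = 0.000152).

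KRT6B, a keratin of activated epithelium, had 13.32, 12.90 and 12.95 in the arrays titled GD2+ and 8.53, 8.06 and 6.73 in those titled GD2-. KRT6A had 13.32, 13.48 and 13.39 in the arrays titled GD2+ and 9.46, 9.80 and 9.66 in those titled GD2-. Both keratins were high in every array titled GD2+, and KRT6B was lowest in GD2- replicate 3 whereas KRT6A was not. They differed by 5.28 ± 0.44 and 3.76 ± 0.12 (SE, adjusted p = 0.00482 and 0.000251, limma). These near-identical keratin genes may share signal between their probes.

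The other higher basal genes included the adhesion and basement membrane genes ITGB6 (4.68), ITGA6 (2.08), LAMA3 (3.79) and LAMB3 (2.38), the cadherin genes CDH3 (3.92) and FAT2 (3.36), the keratin genes KRT15 (4.68) and KRT5 (2.52), SFN (1.67) and TRIM29 (3.59), all as log2 differences. KRT14, the keratin partner of KRT5, had 14.38, 14.24 and 14.23 in the arrays titled GD2+ and 11.49, 12.23 and 12.97 in those titled GD2-, near the top of the scale, and missed the threshold (2.05 ± 0.35 SE, adjusted p = 0.0538, limma). MME, a surface peptidase of myoepithelial cells that stromal cells also carry, went the other way, with 8.12, 8.72 and 8.63 in the arrays titled GD2+ and 11.14, 10.10 and 11.35 in those titled GD2- (-2.37 ± 0.35 SE, adjusted p = 0.0341, limma). Its groups did not overlap, but the call held only with GD2- replicate 2 left out.

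**Figure D2:**
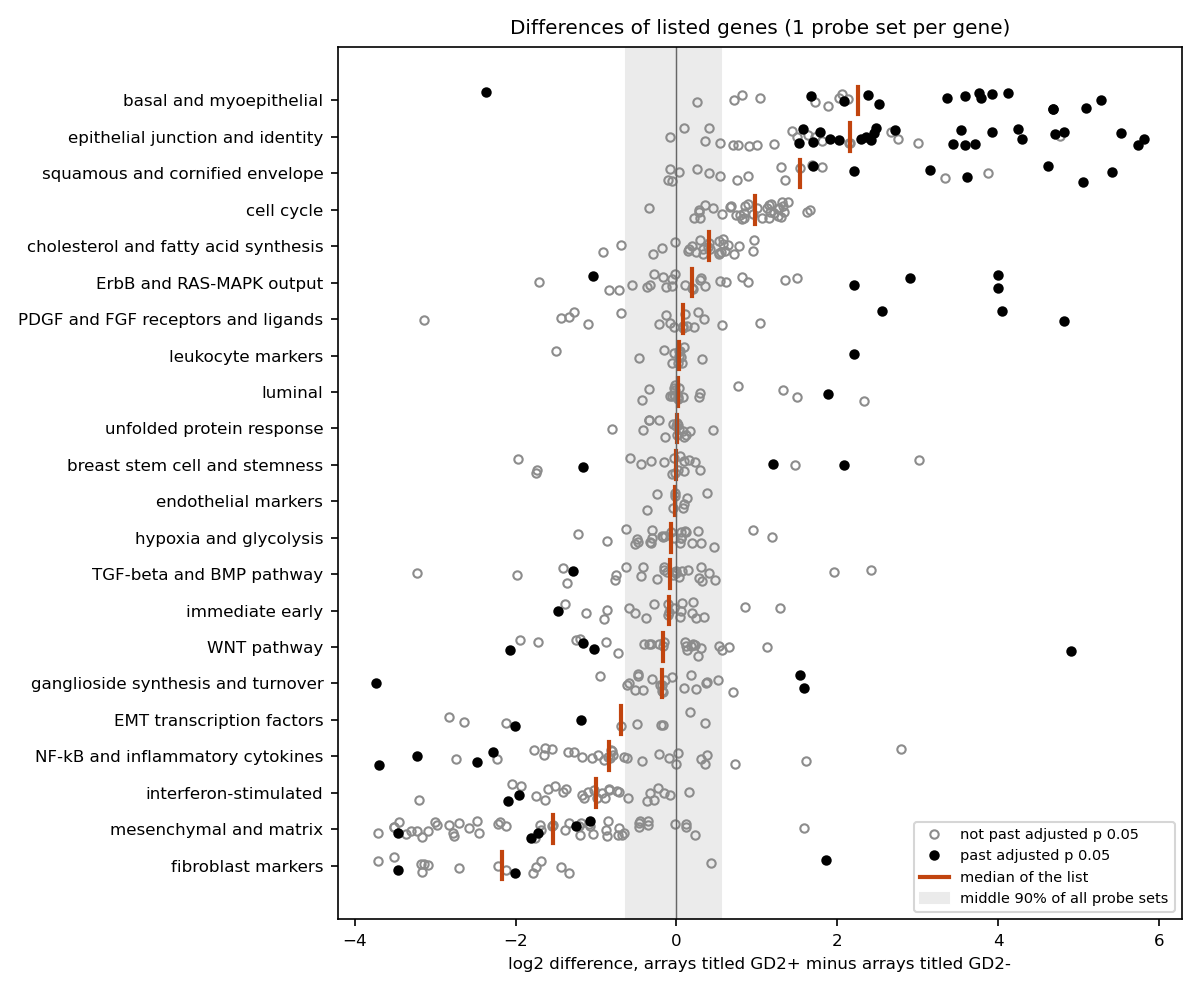
Log2 differences (horizontal axis, arrays titled GD2+ minus arrays titled GD2-) of the measured genes of 22 lists, 1 point per gene, filled where limma's adjusted p was below 0.05, with each list's median as a bar and the middle 90% of all probe sets shaded. Basal, epithelial and squamous genes lie to the right with many filled points, whereas mesenchymal and fibroblast genes lie to the left with few.

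Squamous and cornified envelope genes gave 7 higher, none lower and 16 not passing of 23 measured, with a median of 1.54 (13 higher and 0 lower at an unadjusted p below 0.05). KLK10, one of the kallikrein proteases of squamous epithelium, had 11.75, 10.54 and 10.78 in the arrays titled GD2+ and 6.38, 5.57 and 4.87 in those titled GD2-. SPRR1B, a precursor of the cornified envelope, had 11.07, 10.05 and 9.90 in the arrays titled GD2+ and 5.90, 4.91 and 5.04 in those titled GD2-. Both genes were high in all arrays titled GD2+ and highest in the replicate 1 that stood apart. KLK10 differed by 5.42 ± 0.46 and SPRR1B by 5.06 ± 0.38 (SE, adjusted p = 0.00484 and 0.00346, limma). KLK5 (4.61), KLK8 (3.61), KLK6 (1.70), SERPINB2 (3.15) and SPRR1A (2.21) were the other higher genes. The call of SPRR1A held in 1 of the 6 fits that left out an array, that of KLK8 in 4 and that of KLK6 in 5. The keratin genes of terminal differentiation KRT1 (-0.09), KRT10 (-0.06) and KRT4 (-0.11) overlapped between the groups. The list's mean level was 8.68, 7.36 and 7.40 in the arrays titled GD2+ and 6.21, 5.74 and 5.84 in those titled GD2-, and its median difference was 0.82 without GD2+ replicate 1.

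Luminal genes, which mark the inner, secretory layer, gave 1 higher gene of 20 measured, with 19 not passing. It was KRT8, a keratin of simple epithelium, with 11.23, 11.27 and 11.47 in the arrays titled GD2+ and 9.60, 9.54 and 9.19 in those titled GD2- (1.88 ± 0.14 SE, adjusted p = 0.00343, limma). Its partner KRT18 differed by 2.33 ± 0.50 (SE, adjusted p = 0.102, limma). The hormone receptor genes ESR1 (-0.03) and PGR (-0.02) and the luminal keratin gene KRT19 (-0.01) overlapped between the groups. In 5 of the 20 luminal genes all arrays titled GD2+ lay above all titled GD2-, against 9.72% of all probe sets. In 0 they lay below, against 10%. At an unadjusted p below 0.05 limma gave 5 higher and 0 lower.

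Of 56 measured mesenchymal and matrix genes, none was higher, 5 were lower and 51 did not pass, and their levels varied widely within each group. A dimmer probe set of PLAU was called higher (2.00), and a dimmer one of the matrix gene SPARC was called lower (-1.81). At an unadjusted p below 0.05 limma gave 1 higher (PLAU, a protease gene) and 36 lower genes, against 6.19% and 7.49% of all probe sets, while the median difference was -1.54 and in 40 all arrays titled GD2+ lay below all titled GD2-, against 10% of all probe sets. The median SD between replicate arrays of these genes was 0.53 in the arrays titled GD2+ and 0.76 in those titled GD2-, against 0.14 and 0.17 over all probe sets. Within their groups, GD2+ replicate 1 was the lowest for 45 genes and GD2- replicate 3 the highest for 47. The count of lower genes was 15 with both of these arrays left out (median difference -0.94), 20 with the replicate number as a block and 27 with the spread estimated over all 12 arrays. It was 3 without GD2+ replicate 1, 0 without GD2+ replicate 2 or 3, and 4 to 6 without any one array titled GD2-.

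The 5 lower genes were FSTL1 (-1.26), IGFBP7 (-1.72), NID2 (-1.81), LOXL1 (-1.07) and LUM (-3.46), which encode a follistatin-related glycoprotein, a secreted binding protein of insulin-like growth factors, a basement membrane protein, an enzyme that crosslinks elastin and collagen, and a collagen-binding proteoglycan. FSTL1 had 11.58, 11.66 and 11.66 in the arrays titled GD2+ and 12.82, 12.71 and 13.14 in those titled GD2-. LUM had 3.17, 3.57 and 3.45 in the arrays titled GD2+ and 6.46, 5.99 and 8.14 in those titled GD2-. In both, all arrays titled GD2- were higher, with replicate 3 the highest (limma adjusted p = 0.0118 for FSTL1 and 0.0391 for LUM). With an array left out, the call of FSTL1 held in 4 of 6 fits, IGFBP7 in 3, LUM in 2, and NID2 and LOXL1 in 1 each.

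COL1A2, a chain of type I collagen, had 7.29, 10.21 and 10.22 in the arrays titled GD2+ and 11.96, 12.72 and 14.17 in those titled GD2-. Its groups did not overlap, yet GD2+ replicate 1 lay far below the other arrays of its group and the gene missed the threshold (-3.71 ± 0.92 SE, adjusted p = 0.144, limma). GREM1, a secreted antagonist of bone morphogenetic proteins, had 4.75, 9.02 and 8.99 in the arrays titled GD2+ and 8.66, 10.93 and 12.82 in those titled GD2-. These groups overlapped (-3.22 ± 1.46 SE, adjusted p = 0.41, limma), and so did those of POSTN, a matrix protein gene, at 4.64, 7.19 and 7.09 in the arrays titled GD2+ and 6.89, 9.20 and 13.38 in those titled GD2-. VIM, the intermediate filament gene often used as a mesenchymal marker, was near the top of the scale in all arrays, with 13.35, 14.23 and 14.30 in the arrays titled GD2+ and 14.28, 14.46 and 14.52 in those titled GD2- (-0.46 ± 0.26 SE, adjusted p = 0.52, limma).

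Of 18 measured markers of fibroblasts, another cell type that makes these matrix genes, 1 was higher (MFAP5), 2 were lower (LUM and TWIST1) and 15 did not pass, with a median of -2.17. In 14 of the 18 all arrays titled GD2+ lay below all titled GD2-, against 10% of all probe sets. In 1 they lay above, against 9.72%. At an unadjusted p below 0.05 limma gave 1 higher and 14 lower, against 6.19% and 7.49% of all probe sets. The calls of MFAP5, LUM and TWIST1 held in 1, 2 and 3 of the 6 fits that left out an array. Of the 3 probe sets of MFAP5, 1 was not called. The mean level of the 18 markers was 7.07, 8.24 and 8.31 in the arrays titled GD2+ and 9.24, 9.66 and 11.04 in those titled GD2-. Of these 18 genes 9 also stand in the mesenchymal and matrix list, and the part of fibroblast-like cells in the matrix result was not tested. In these bulk samples, fewer cells of a type and less RNA per cell cannot be told apart. Endothelial markers (9 measured, none called, none at an unadjusted p below 0.05) had mean levels of 4.44 to 4.56 in the arrays titled GD2+ and 4.42 to 4.56 in those titled GD2-. Leukocyte markers had mean levels of 5.38 to 5.51 in the arrays titled GD2+ and 5.33 to 5.44 in those titled GD2-, and 1 of 14 was called, CORO1A, an actin-binding protein gene (2.21, adjusted p = 0.0231, limma), whose call was lost in 4 of the 6 fits that left out an array.

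Of the EMT transcription factor genes, 2 of 11 measured were lower, none was higher and 9 did not pass, with a median difference of -0.69 (0 higher and 4 lower at an unadjusted p below 0.05). TWIST1 had 9.24, 9.92 and 10.05 in the arrays titled GD2+ and 11.93, 11.51 and 11.80 in those titled GD2-, and TCF4 had 8.20, 7.93 and 7.93 in the arrays titled GD2+ and 9.38, 8.95 and 9.29 in those titled GD2-. Neither overlapped between the groups, and their differences were -2.01 ± 0.24 and -1.19 ± 0.15 (SE, adjusted p = 0.0172 and 0.0227, limma). The call of TWIST1 was lost in 3 of the 6 fits that left out an array and that of TCF4 in 4, and both were lost without GD2+ replicate 2 or 3. The list's count of lower genes in these fits was 0 to 3. ZEB2, a relative of ZEB1, had 3.55, 5.64 and 5.37 in the arrays titled GD2+ and 7.08, 7.68 and 7.73 in those titled GD2- (-2.65 ± 0.55 SE, adjusted p = 0.0926, limma), and another of its probe sets passed the test (-1.26 ± 0.17 SE, adjusted p = 0.0276). SNAI2 differed by 0.35, SNAI1 by -0.17 and PRRX1 by -2.12, and none of these passed. The median of the list was -0.16 with both arrays that stood apart left out. Of these factor genes, 4 were then called lower.

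**Figure D3:**
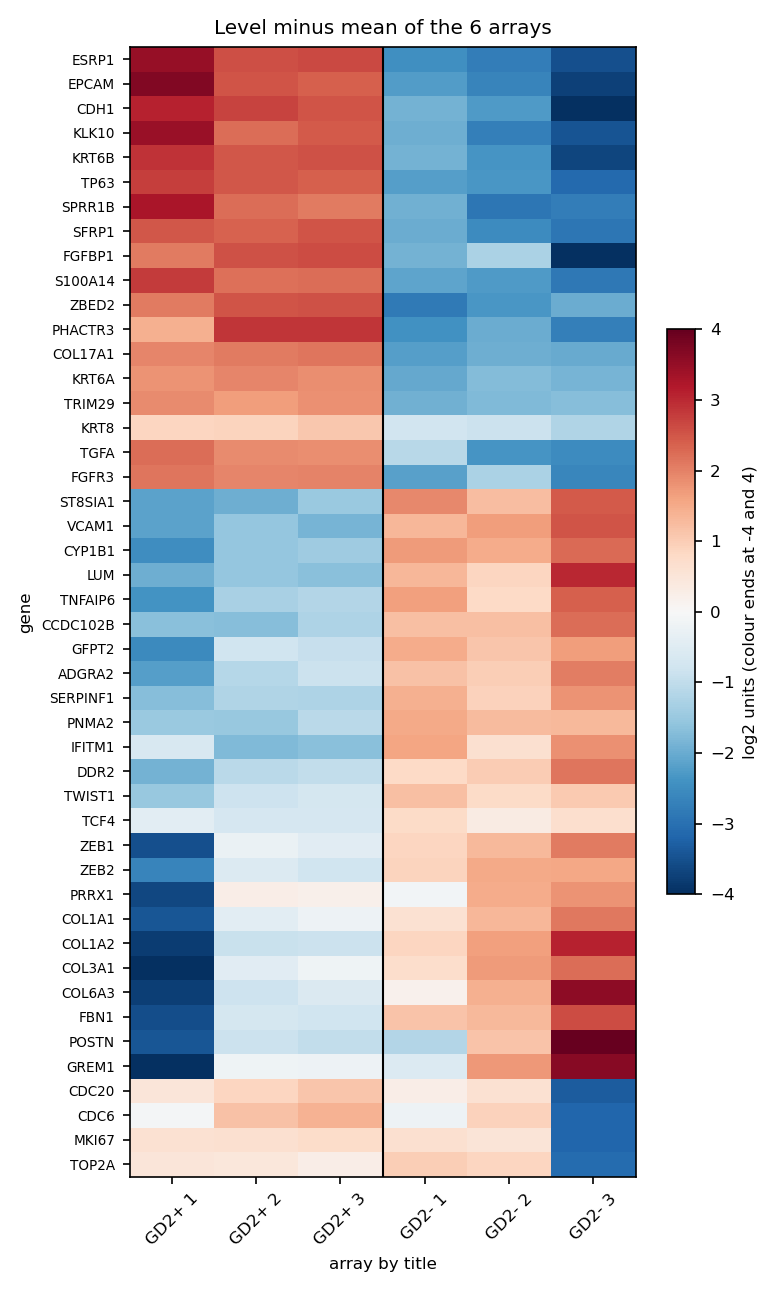
Level of each named gene (rows) minus its mean over the 6 arrays, in log2 units (colour, ending at -4 and 4), for the arrays titled GD2+ (left 3 columns) and GD2- (right 3 columns). The epithelial and basal genes drawn, COL17A1 among them, are higher in all arrays titled GD2+ than in all titled GD2-. The other collagen genes are lowest in GD2+ replicate 1 and highest in GD2- replicate 3, and the cell cycle genes at the bottom are low in GD2- replicate 3.

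No cell cycle gene of 36 passed limma's adjusted test in either direction, and none had an unadjusted p below 0.05. All 36 overlapped between the groups, and the median difference of 0.98 became -0.02 without GD2- replicate 3. MKI67, a proliferation marker, had 10.87, 10.92 and 11.02 in the arrays titled GD2+ and 10.91, 10.80 and 7.11 in those titled GD2-. CDC20, an activator of the anaphase-promoting complex, had 11.53, 11.91 and 12.15 in the arrays titled GD2+ and 11.31, 11.67 and 7.72 in those titled GD2-. Of the 36 genes, 35 were lowest of all 6 arrays in GD2- replicate 3, the array in which the matrix genes were highest.

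**Figure D4:**
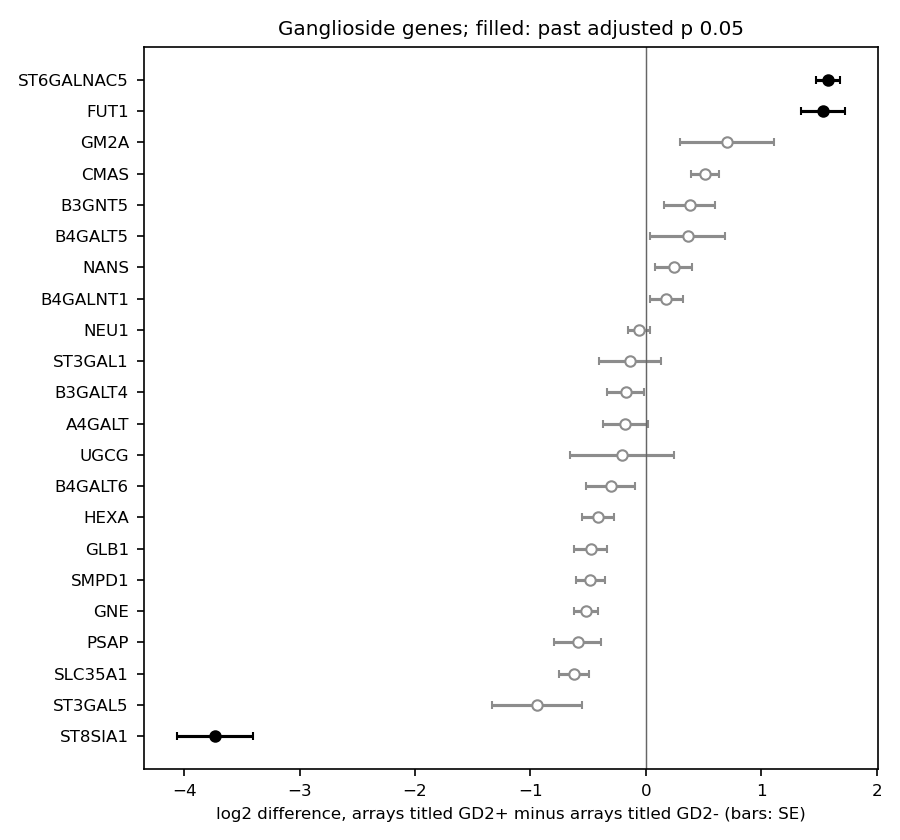
Log2 difference (horizontal axis, arrays titled GD2+ minus arrays titled GD2-) of measured ganglioside genes, with bars for limma's SE and filled points where the adjusted p was below 0.05. ST8SIA1 lies at -3.73, far from the other genes, and ST6GALNAC5 and FUT1 lie at 1.58 and 1.53.

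Ganglioside genes were described at length because the sort was by a ganglioside. Of 24 measured, 2 were higher, 1 was lower and 21 did not pass, with a median of -0.17. In 8 of the 24 all arrays titled GD2+ lay below all titled GD2-, against 10% of all probe sets. In 3 they lay above, against 9.72%. At an unadjusted p below 0.05 limma gave 3 higher and 8 lower genes, against 6.19% and 7.49% of all probe sets. Upstream of ST8SIA1, UGCG, which makes glucosylceramide, differed by -0.21 ± 0.45, B4GALT5 and B4GALT6, which make lactosylceramide, by 0.36 ± 0.33 and -0.30 ± 0.21, and ST3GAL5, the GM3 synthase gene, by -0.94 ± 0.39 (SE, adjusted p = 0.899, 0.708, 0.609 and 0.361, limma). ST3GAL5 had 7.07, 8.31 and 8.36 in the arrays titled GD2+ and 8.46, 9.29 and 8.83 in those titled GD2-, without overlap. Of the genes that act on complex gangliosides beyond GM2 and GD2, B3GALT4 (-0.17) and ST3GAL1 (-0.14) overlapped between the groups.

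The higher genes were ST6GALNAC5, a sialyltransferase that makes alpha-series gangliosides, and FUT1, a fucosyltransferase of the H antigen. ST6GALNAC5 had 4.96, 4.87 and 4.98 in the arrays titled GD2+ and 3.43, 3.43 and 3.20 in those titled GD2-, low on the scale throughout. FUT1 had 6.96, 6.28 and 6.64 in the arrays titled GD2+ and 4.99, 5.28 and 5.01 in those titled GD2-. For both genes the groups did not overlap (1.58 ± 0.11 and 1.53 ± 0.19 SE, adjusted p = 0.00223 and 0.0217, limma), and ST6GALNAC5 kept its call with each array left out in turn, while that of FUT1 was lost without GD2+ replicate 3 or GD2- replicate 1.

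Of the genes for making and moving sialic acid, GNE (-0.52), SLC35A1 (-0.62), CMAS (0.51) and NANS (0.24) did not pass. GNE and SLC35A1 lay lower and CMAS higher in all arrays titled GD2+, and NANS overlapped. Among genes of ganglioside breakdown, GLB1 (-0.48), HEXA (-0.42) and PSAP (-0.59) lay lower in all arrays titled GD2+ without passing, and GM2A (0.71) and NEU1 (-0.06) overlapped. SMPD1 (-0.48), a sphingomyelinase gene in the same list, also lay lower in all arrays titled GD2+ without passing. The neighbouring glycolipid branches were represented by A4GALT (-0.18) and B3GNT5 (0.38), which overlapped too. ST8SIA1 was thus the only gene of the 24 called lower in these arrays.

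CD44, the hyaluronan receptor used with CD24 to sort the other arrays, was measured by 8 probe sets that did not all behave alike. The brightest had 12.20, 12.88 and 12.83 in the arrays titled GD2+ and 12.36, 12.87 and 12.83 in those titled GD2-, with a difference of -0.05 ± 0.23 (SE, adjusted p = 0.958, limma). A dimmer one had 9.25, 8.38 and 8.32 in the arrays titled GD2+ and 6.80, 6.45 and 5.72 in those titled GD2-. It was higher without overlap (2.33 ± 0.35 SE, adjusted p = 0.0391, limma), as were 3 others (differences of 0.85, 0.86 and 1.64), while 4 did not pass (-0.05 to 0.31). Which CD44 transcripts each probe set measures was not given in the sources used here.

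NF-kB and inflammatory cytokine genes gave 4 lower, none higher and 30 not passing of 34, with a median of -0.84 (15 lower and 2 higher at an unadjusted p below 0.05). VCAM1, an adhesion molecule for leukocytes, had 4.26, 4.87 and 4.57 in the arrays titled GD2+ and 7.75, 8.09 and 8.94 in those titled GD2- (-3.69 ± 0.32 SE, adjusted p = 0.00544, limma). TNFAIP6, a secreted hyaluronan-binding protein, had 6.88, 7.98 and 8.09 in the arrays titled GD2+ and 10.91, 10.07 and 11.66 in those titled GD2- (-3.23 ± 0.48 SE, adjusted p = 0.0356). The neutrophil chemokine genes CXCL8 (-2.48, adjusted p = 0.0455) and CXCL1 (-2.28, adjusted p = 0.0492) completed the 4, none of which overlapped between the groups. The interleukin gene IL1A lay the other way, with 11.54, 9.21 and 9.52 in the arrays titled GD2+ and 8.24, 6.23 and 7.41 in those titled GD2-, and did not pass (2.80 ± 0.74 SE, adjusted p = 0.16, limma). The count of lower genes was 0 without GD2+ replicate 3, 6 without GD2- replicate 2 and 1 without each of the other arrays.

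Interferon-stimulated genes gave 2 lower of 30 (median -1.01): BST2, a tether of enveloped viruses (-2.09 ± 0.23 SE, adjusted p = 0.0133, limma), and IFI27 (-1.96 ± 0.26 SE, adjusted p = 0.0244). Both calls were lost without GD2+ replicate 2 or 3, and that of IFI27 in 4 of the 6 fits that left out an array. Of the 30, 18 had all arrays titled GD2+ below all titled GD2-, against 10% of all probe sets. GD2- replicate 3 was the highest of the 6 arrays for 25 of the 30. IFITM1, a membrane protein that restricts viral entry and was named outside the list after its values were seen, had 9.54, 8.41 and 8.51 in the arrays titled GD2+ and 11.73, 10.82 and 11.99 in those titled GD2-, and was lower (-2.69 ± 0.40 SE, adjusted p = 0.0379, limma), a call also lost in 4 of 6 such fits.

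Growth factor genes differed by family member. Of the ErbB and RAS-MAPK genes, 4 of 29 were higher and 1 lower. The ErbB ligand genes TGFA (4.0 ± 0.37), HBEGF (2.91 ± 0.30) and NRG1 (4.0 ± 0.51) were higher, with UPP1 (2.20 ± 0.27), a uridine phosphorylase gene, while the ligand gene EREG was lower (-1.04 ± 0.15; SE, adjusted p = 0.0068, 0.0112, 0.0226, 0.0202 and 0.03, limma). NRG1 had 10.42, 9.33 and 9.52 in the arrays titled GD2+ and 6.19, 6.42 and 4.67 in those titled GD2-. TGFA had 10.12, 9.79 and 9.75 in the arrays titled GD2+ and 6.76, 5.51 and 5.37 in those titled GD2-, and EREG had 9.87, 10.40 and 10.12 in the arrays titled GD2+ and 11.12, 11.20 and 11.19 in those titled GD2-. These ligands of a shared receptor family thus lay in opposite directions, both without overlap. The 4 higher calls were all lost without GD2+ replicate 2 or 3, and that of EREG with any array left out.

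Among receptors and ligands of the PDGF and FGF families, 3 of 22 were higher and none lower (4 higher and 5 lower at an unadjusted p below 0.05). FGFR3 had 10.90, 10.70 and 10.74 in the arrays titled GD2+ and 6.58, 7.49 and 6.14 in those titled GD2-, and FGFR2 had 7.72, 6.94 and 7.07 in the arrays titled GD2+ and 4.94, 4.43 and 4.70 in those titled GD2-. Both receptors were high in all arrays titled GD2+ (4.04 ± 0.33 and 2.56 ± 0.24 SE, adjusted p = 0.00432 and 0.00697, limma), and all 3 probe sets of FGFR2 and both of FGFR3 were called. FGFBP1, a secreted carrier of fibroblast growth factors, was higher by 4.82 ± 0.68 (SE, adjusted p = 0.03, limma), a call that held in 2 of the 6 fits that left out an array. PDGFRA, a receptor of mesenchymal cells, had 4.87, 6.62 and 6.41 in the arrays titled GD2+ and 8.61, 8.78 and 9.92 in those titled GD2- and missed the threshold (-3.14 ± 0.55 SE, adjusted p = 0.0577, limma).

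In the WNT pathway 1 of 28 genes was higher and 3 were lower. SFRP1, a secreted inhibitor of WNT ligands, had 10.03, 9.89 and 10.07 in the arrays titled GD2+ and 5.58, 5.04 and 4.66 in those titled GD2-. It was high in all arrays titled GD2+ (4.91 ± 0.23 SE, adjusted p = 0.000656, limma), and all 3 of its probe sets were called. The ligand gene WNT5A (-2.07) and the receptor genes FZD7 (-1.16) and FZD2 (-1.02) were lower (adjusted p = 0.0392, 0.0321 and 0.0452, limma), and the calls of WNT5A and FZD7 were lost with any array left out, and that of FZD2 in 5 of 6 such fits.

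In the TGF-beta and BMP pathway 1 of 28 was lower, TGFBR3, a co-receptor gene (-1.29 ± 0.20 SE, adjusted p = 0.0396, limma), and the receptor genes TGFBR1 (-0.03) and TGFBR2 (-0.04) overlapped between the groups. Of 22 breast stem cell and stemness genes, ITGA6 (2.08) and ABCG2, a drug efflux transporter gene (1.20, adjusted p = 0.027, limma), were higher and FZD7 was lower. ALDH1A3, an aldehyde dehydrogenase gene (3.02, adjusted p = 0.0548), NOTCH3 (-1.97, 0.0536) and BMI1 (0.04, 0.96) did not pass. Of 22 immediate early genes, CCN2, a matricellular protein gene, was lower (-1.47, adjusted p = 0.0303, limma). The calls of ITGA6, ABCG2 and TGFBR3 each held in 1 of the 6 fits that left out an array, that of CCN2 in 2 and that of FZD7 in none.

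The remaining lists held no gene called by limma on its brightest probe set. At an unadjusted p below 0.05, hypoxia and glycolysis (27 measured, median -0.07) held 2 higher and 4 lower genes, the unfolded protein response (17 measured) held 0, and cholesterol and fatty acid synthesis (27 measured, median 0.40) held 11 higher and 3 lower, against 6.19% higher and 7.49% lower of all probe sets. None of these passed the adjusted test on its brightest probe set. For FADS1, in the cholesterol list, 1 of 3 probe sets was called lower (differences of -1.21 to -0.91). In the cholesterol list, 13 genes had all arrays titled GD2+ above all titled GD2-, against 9.72% of all probe sets. A further 3 had them all below, against 10%. In 20 of the 27, GD2- replicate 3 was the lowest of the 6 arrays.

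Other genes with large differences were not in the lists. CYP1B1, a cytochrome P450 gene, had 7.01, 7.94 and 8.07 in the arrays titled GD2+ and 11.20, 10.97 and 11.77 in those titled GD2- (-3.64 ± 0.33 SE, adjusted p = 0.00655, limma), and all 4 of its probe sets were lower. PNMA2, a paraneoplastic antigen gene, had 4.39, 4.37 and 4.81 in the arrays titled GD2+ and 7.38, 7.16 and 7.16 in those titled GD2- (-2.71 ± 0.15 SE, adjusted p = 0.00128). Both calls held with each array left out in turn. SERPINF1, which encodes the secreted factor PEDF (-2.77), CCDC102B (-3.08), GFPT2, an enzyme of the hexosamine pathway (-2.84), ADGRA2, an adhesion receptor (-2.81), and DDR2, a collagen receptor (-2.63), were the other lower genes among the 12 with the largest differences. On the higher side ZBED2 (4.76) and PHACTR3 (4.76) stood in that set. ADGRA2 lost its call with any array left out, and GFPT2 and DDR2 kept theirs in 1 of 6 such fits.

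**Figure D5:**
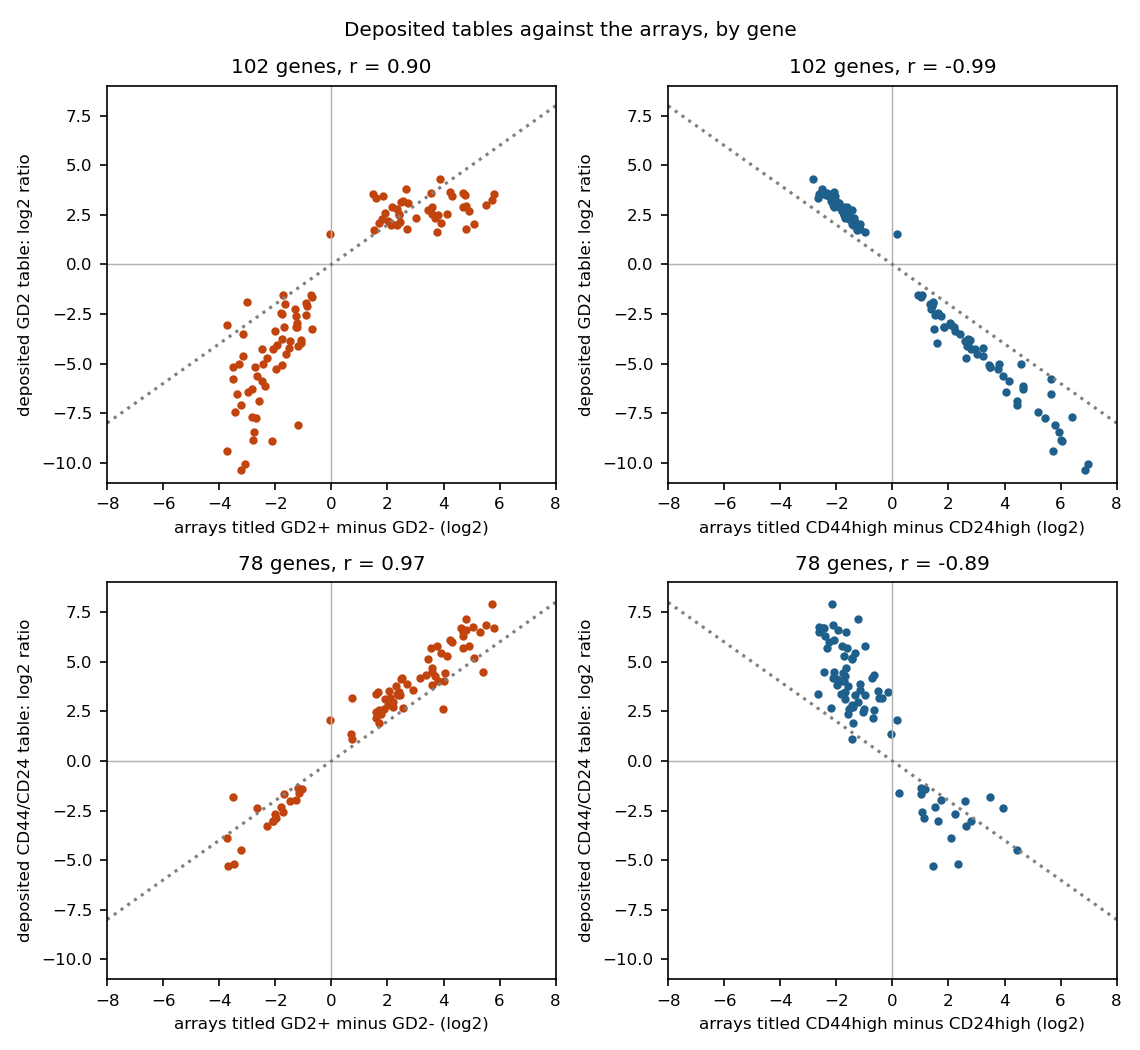
Log2 ratio of each gene in the authors' deposited tables (vertical axes, GD2 table above and CD44/CD24 table below) against its log2 difference on the arrays titled GD2+ and GD2- (left) and CD44high and CD24high (right), with dotted lines where both sizes are equal. The ratios of the GD2 table correlate with the CD44/CD24 arrays at r = -0.99, and those of the CD44/CD24 table with the GD2 arrays at r = 0.97. Most points of these panels lie off the dotted lines, with table ratios larger than array differences.

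The authors also deposited a table of differential genes for each sort, without naming arrays or the numerator of the ratio, and these were set against the arrays gene by gene. Of the genes in the authors' deposited GD2 table, 102 had a named probe set, and their log2 ratios correlated with the differences of the GD2 arrays at r = 0.90 and with those of the arrays titled CD44high minus CD24high at r = -0.99, across genes. For 78 genes of the authors' deposited CD44/CD24 table these values were 0.97 for the GD2 arrays and -0.89 for the CD44/CD24 arrays. Genes are not independent replicates, and only these named genes of the 600 and 578 deposited rows were compared.

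Sizes differed likewise. The mean gap in size between the authors' deposited GD2 table and the arrays was 2.02 log2 units for the GD2 arrays and 1.26 for the CD44/CD24 arrays with the sign turned. For the authors' deposited CD44/CD24 table it was 1.07 for the GD2 arrays and 2.36 for the CD44/CD24 arrays, again with the sign turned for the latter. EPCAM, 53.6-fold higher in the arrays titled GD2+, had a 9.41-fold ratio in the authors' deposited GD2 table and a 239-fold ratio in the authors' deposited CD44/CD24 table. GREM1, 9.32-fold apart without passing on the GD2 arrays, had a 1307-fold ratio in the authors' deposited GD2 table, on the side below 1. Most table ratios were larger than the differences of the arrays they lay closer to. GREM1 was at -10.35 log2 units in the GD2 table and 6.88 on the CD44/CD24 arrays. VCAM1 was at -5.30 in the CD44/CD24 table and -3.69 on the GD2 arrays. Among the genes compared, the side of the ratio in the authors' deposited tables matched the sign on the GD2 arrays, above 1 for genes higher in the arrays titled GD2+, for 101 of 102 in the GD2 table and 77 of 78 in the CD44/CD24 table. The exception in both was CD44, above 1 in the authors' deposited tables and at -0.05 on the GD2 arrays. That value is of its brightest probe set, while 4 of its 8 probe sets were called higher. In the sizes and signs compared here, a ratio is the average of a gene's rows, whereas the arrays give 1 probe set per gene. ST8SIA1 was on the side below 1, at 8.26-fold in the GD2 table and 15.03-fold in the CD44/CD24 table. Each deposited table thus lay closer in size to the arrays of the other sort, and which arrays the tables were made from was not given in the sources used here. Whether the tables, or the labels of the arrays, were exchanged between the sorts was not tested.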

How the data were processed

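Total RNA of sorted HMLER cells was labelled through an oligo(dT) primer and hybridized to single-colour Affymetrix arrays, per the labels' protocols. Values of 54675 probe sets were used on the log2 scale as deposited. The authors' background correction, normalization and probe summary were not given in the sources used here, and the log2 scale was read from the values. In the authors' deposited tables each row has an adjusted p-value and a ratio (fold) with its reciprocal (600 rows for GD2, 578 for CD44/CD24). Rows of a gene were averaged on the log2 scale, and older symbols were updated through RefSeq (GRCh38.p14).

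Arrays were grouped by title. Linear models were fitted to the 6 arrays alone, over 54613 probe sets (limma 3.58.1, R 4.3.3, empirical Bayes, Benjamini-Hochberg, threshold 0.05), and the step was tested on simulated data. No filter on low values was used. The number of arrays limits the precision.

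No table pairing probe sets with genes was used here. Names were recalled from the array maker's annotation: 832 probe sets for 539 of 617 listed genes, and 47 probe sets with large differences, giving 31 further genes, named after their values were seen. A gene with several probe sets was represented by the brightest. Where the brightest was not called, another probe set was called higher for CD44, EGFR, IL1RN, MET and PLAU. Another was called lower for FADS1, SPARC and ZEB2. Where the brightest was called, 1 other probe set was not called for each of CXCL8, DSC2, KLF5, MFAP5, MME, SPRR1A, TCF4 and TGFBR3. As a check, 293 pairs of probe sets under the same name had a median r of 0.81 over 12 arrays, and 211 (72.0%) exceeded 0.5. Single names may still be wrong.

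The members and lists were chosen with earlier results of these data known. Genes named were the markers of the sort, the 12 largest differences per direction among called genes whose arrays did not overlap, up to 5 genes per list by adjusted p, and the ganglioside genes. A few listed genes are counted with their lists but not reported here. Further members of the lists were named to describe each list, and so chosen after their values were seen. Promoters were read in Python 3.11.15.

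Alternatives were quantile normalization, median centring, tests without the dimmest 40% of probe sets, tests without probe sets whose names end in _x_at or _s_at, a robust variance with a trend, a difference of at least 1 log2 unit, all 12 arrays, a replicate block, the probe set of largest SD, each array left out, and both arrays that stood apart left out, which was chosen after seeing the data.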

Additional observations from a re-analysis of the deposited data

How the results depend on the processing

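No named gene changed direction past the threshold under any alternative run. The 467 higher and 254 lower probe sets, and the 58 higher and 21 lower listed genes, moved within 1.5 times under quantile normalization, median centring, leaving out dim probe sets, a trended variance, a difference of at least 1 log2 unit and, for listed genes, the probe set of largest SD. Without probe sets ending in _x_at or _s_at, 279 were higher and 159 lower, with 32 higher listed genes, since fewer probe sets were tested. With the spread estimated over all 12 arrays, 1321 were higher and 1459 lower, with 90 and 70 listed genes. The 6 other arrays had larger 3′ over 5′ control differences (actin 3.35 to 4.66 log2 units) than the arrays titled GD2+ and GD2- (0.05 to 0.26). Leaving out both arrays that stood apart gave 522 lower probe sets and 41 lower listed genes. Leaving out each array in turn gave 140 to 454 higher and 12 to 266 lower probe sets, and 29 to 68 higher and 1 to 18 lower listed genes. The lowest counts came without GD2+ replicate 3 (140 and 12) and GD2+ replicate 2 (161 and 19). Lower probe sets numbered 133 without GD2+ replicate 1 and 109 without GD2- replicate 1, and higher ones 292 and 310 without GD2- replicates 1 and 2. The cause of these changes was not tested.

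The labels do not say that the replicate numbers pair the arrays, so no pairing was used in the main fit. Same-numbered arrays deviated from their group means together at r = 0.47, 0.39 and 0.03 across probe sets. Whether the arrays are paired was not tested. With the replicate number as a block, 544 probe sets and 45 listed genes were lower, and 595 probe sets and 72 listed genes higher. Levels of ST8SIA1 and LUM in the arrays titled GD2+, and of ST6GALNAC5 throughout, lie near the low end of the scale, where differences are compressed. The same holds for other genes with large differences. Among them are CCDC102B, PLSCR4 and VCAM1 in the arrays titled GD2+, and ESRP1, ZBED2, PHACTR3 and CAMK2B in those titled GD2-.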

Other observations

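Several genes outside the lists, named after their values were seen, kept their call with each array left out in turn. AQP3, a water and glycerol channel gene, had 10.77, 10.30 and 10.42 in the arrays titled GD2+ and 6.66, 6.42 and 6.57 in those titled GD2- (3.95 ± 0.15 SE, adjusted p = 0.000389, limma). CAMK2B, a subunit of a calcium-dependent kinase, had 8.63, 8.18 and 8.51 in the arrays titled GD2+ and 4.24, 4.53 and 4.09 in those titled GD2- (4.16 ± 0.17 SE, adjusted p = 0.000389). Both were high in all arrays titled GD2+, as were MAP7, a microtubule-associated protein gene (4.35), PNLIPRP3, a lipase-related gene (4.06), and GJB6, a gap junction gene (3.86). PLSCR4, of the phospholipid scramblase family, lay the other way, with 3.98, 4.05 and 4.03 in the arrays titled GD2+ and 6.38, 6.03 and 6.61 in those titled GD2- (-2.32 ± 0.16 SE, adjusted p = 0.00226, limma).

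INHBA, a subunit of activin, had 11.18, 11.32 and 11.35 in the arrays titled GD2+ and 8.11, 7.83 and 12.03 in those titled GD2-. GD2- replicate 3 was the highest of the 6 arrays for this gene while the other arrays titled GD2- were the lowest, so the groups overlapped (1.96 ± 1.07 SE, adjusted p = 0.502, limma).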
